A study of Mus musculus with 19 samples.

Results

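The genes described here code for the proteasome, chosen by symbol: every gene whose symbol starts with Psma to Psmg followed by a number, without the immunoproteasome genes Psmb8, Psmb9 and Psmb10. This gave 39 of the 6889 gene symbols in the data. They were 15 core genes (Psma and Psmb), 18 base and lid genes (Psmc and Psmd), 4 activator genes (Psme), and Psmf1 and Psmg4, whose symbols match but belong to none of these classes. All 39 were in the astrocyte table of 6376 genes, 31 in the microglia table of 3067 and 35 in the monocyte table of 3776. Every one of these members passed the filter on low values in its table.

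The proteasome is the protease complex that destroys proteins tagged with ubiquitin. Its barrel-shaped core is built of stacked rings of alpha and beta subunits, and the cutting is done inside by the beta subunits coded by Psmb5, Psmb6 and Psmb7. A base of ATPases unfolds substrates and a lid removes their ubiquitin, while activators such as the heteromer of Psme1 and Psme2 open the core without ubiquitin. Interferon gamma induces Psmb8, Psmb9 and Psmb10, which take the places of Psmb5, Psmb6 and Psmb7 in newly made cores and form the immunoproteasome, best known for making peptides for MHC class I in immune cells. XBP1 is a regulator that switches genes on when unfolded proteins pile up in the endoplasmic reticulum.

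The libraries came from female wild-type C57Bl/6 mice at postnatal day 85 with experimental autoimmune encephalomyelitis (EAE), an inflammatory disease of the central nervous system, set off by injecting 25 µg of MOG35-55, a piece of a myelin protein, in CFA (complete Freund's adjuvant). Before that, each mouse had received a lentivirus into the brain, either pLenti-Gfap-GFP-shXbp1, with an shRNA against Xbp1 (called shXbp1), or pLenti-Gfap-GFP-shScramble, with a non-targeting shRNA (called shScrmbl). Cells were sorted by flow cytometry, and 3′ digital gene expression, which tags transcript ends, gave 4 shXbp1 and 4 shScrmbl libraries of astrocytes, 3 and 4 of microglia, and 2 and 2 of monocytes, 19 in all. All mice carried EAE and a virus, and the Gfap promoter named in the vector drives expression in astrocytes, so microglia and monocytes were not the cells the vector targets. The labels do not say whether GFP was used to select astrocytes, nor whether libraries of different cell types came from the same mice. Each nervous system was taken from 1 mouse, so a library of a cell type was treated as a mouse.

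Total counts, summed over the genes in each table, ran from 32842 to 302003 in astrocytes, 10039 to 122002 in microglia and 15654 to 112676 in monocytes. Markers of the labelled cell were present in each table: 13 of 15 astrocyte, 12 of 12 microglia and 11 of 12 monocyte markers were measured. Astrocyte markers summed to 0.297% to 0.341% of counts in shXbp1 and 0.189% to 0.295% in shScrmbl astrocyte libraries, whereas choroid plexus markers summed to 16.8% to 25.8% in shXbp1 and 22.6% to 30.7% in shScrmbl. In microglia libraries choroid plexus markers summed to 3.64% to 5.28% in shXbp1 and 1.75% to 6.87% in shScrmbl, above the microglia markers in each group. In monocyte libraries they summed to 0.438% to 1.02% in shXbp1 and 0.361% to 0.470% in shScrmbl. Xbp1 itself did not separate the viruses in the targeted cells. Its signal, the normalized value in the tables, was 34.1, 52.9, 31.2 and 79.7 in shXbp1 astrocytes, against 20.1, 71.7, 79.9 and 27.6 in shScrmbl astrocytes, from 28 counts in shXbp1 and 22 in shScrmbl. The groups overlapped, and the log2 difference of 0.12 ± 0.70 (SE; limma adjusted p 0.966) turned to -0.08 with edgeR.

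Proteasome genes were a small and broadly shared part of the counts of each cell type. The 30 members other than Psmb11 that all 3 tables held summed to 0.604% ± 0.0837 of counts in astrocytes (SD, n = 8), 0.595% ± 0.0925 in microglia (n = 7) and 0.803% ± 0.205 in monocytes (n = 4). Levels of single genes below are counts per 1000000 counts of the library (CPM), not scaled by length, since 3′ tags count transcript ends. In every percent and CPM, a library's counts are those of the genes in its table. Levels set side by side between cell types are thus relative to different sets of genes. Most members exceeded the median gene of their table (33 of 39 in astrocytes, 25 of 31 in microglia, 29 of 35 in monocytes). A count was present in every library for 36 of 39, 18 of 31 and 31 of 35 members, in the same order of cell types. The tables were scaled separately and hold different genes, so no test between cell types was run.

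**Figure D1:**
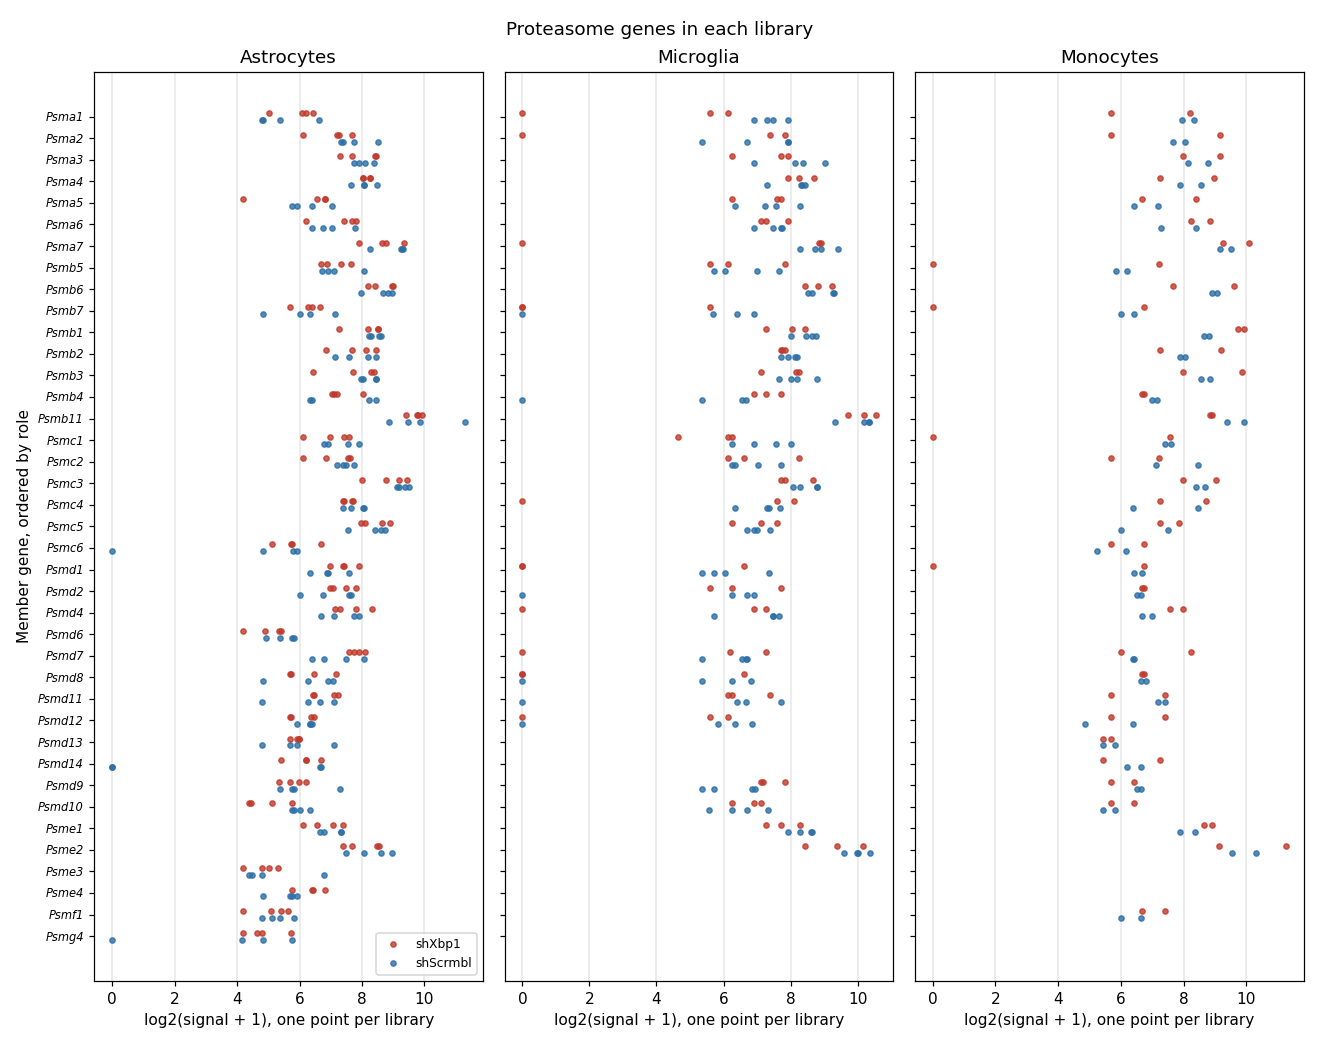
Each point is 1 library, with log2(signal + 1) on the x axis and member genes down the y axis in order of role, shXbp1 above shScrmbl. The groups are interleaved for most genes, Psmb11 is among the rightmost in all 3 cell types, and the points at 0 are libraries without a count.

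Among the alpha ring genes, which form the outer rings and the gate of the core, Psma7 was highest in each cell type, with 492 CPM in astrocytes, 397 in microglia and 736 in monocytes. At the low end was Psma1 in astrocytes (54.3) and microglia (109), and Psma5 in monocytes (158). Of the beta subunits without catalytic activity, Psmb1 led with 319, 308 and 680 CPM, and Psmb4 was lowest in each, at 187, 106 and 119. Among the base ATPases, 6 in astrocytes, 5 in microglia and 6 in monocytes, Psmc3 led with 559.6, 324 and 369.8 CPM. Lid genes were lower: their medians were 71.9 over 7 genes in astrocytes, 66.0 over 4 in microglia and 101 over 6 in monocytes.

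The lid gene Psmd7 averaged 199.9 CPM in astrocytes, while Psmd6 had 38.8. Psmd14 codes for the lid's deubiquitinase. Psmd9 and Psmd10, chaperones that help to assemble the base and leave the finished complex, had 64.3 and 47.0 CPM in astrocytes, 125 and 104 in microglia and 79.4 and 57.0 in monocytes. The inhibitor gene Psmf1 had 37.2 in astrocytes and 106 in monocytes, and Psmg4, which codes for a chaperone of core assembly, had 28.1 in astrocytes. Without Psmb11, the lowest and highest member differed by 19.9 times in astrocytes, 22.9 in microglia and 24.4 in monocytes.

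Across the 30 shared members the order of levels was alike between cell types. Pearson's r and Spearman's rho of mean levels were 0.887 and 0.894 between microglia and monocytes, 0.669 and 0.693 between astrocytes and microglia, and 0.699 and 0.716 between astrocytes and monocytes. These describe the same genes, tagged at the same transcript ends, in 3 sets of libraries. Neighbours in the order of levels are not distinguished: Psmb11, Psmc3, Psma7 and Psmb6, the first 4 in astrocytes, each overlapped the next over the 8 libraries.

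The balance of the classes differed in value between cell types. Core genes without Psmb11 took 55.6% ± 2.54 of the counts of core, base and lid genes in astrocytes (SD, n = 8), 65.4% ± 2.35 in microglia (n = 7) and 68.8% ± 3.69 in monocytes (n = 4), over the shared genes. The highest astrocyte library, at 59.1%, was below the lowest microglia library, at 62.6%. Their Clopper-Pearson 95% intervals overlapped, at 52.4% to 65.4% and 55.5% to 69.2%. The 14 base and lid genes in all tables took 0.248% ± 0.0298 of counts in astrocytes, against 0.164% ± 0.0136 in microglia and 0.199% ± 0.0263 in monocytes. In these bulk libraries fewer cells of a type and less RNA per cell cannot be told apart.

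**Figure D2:**
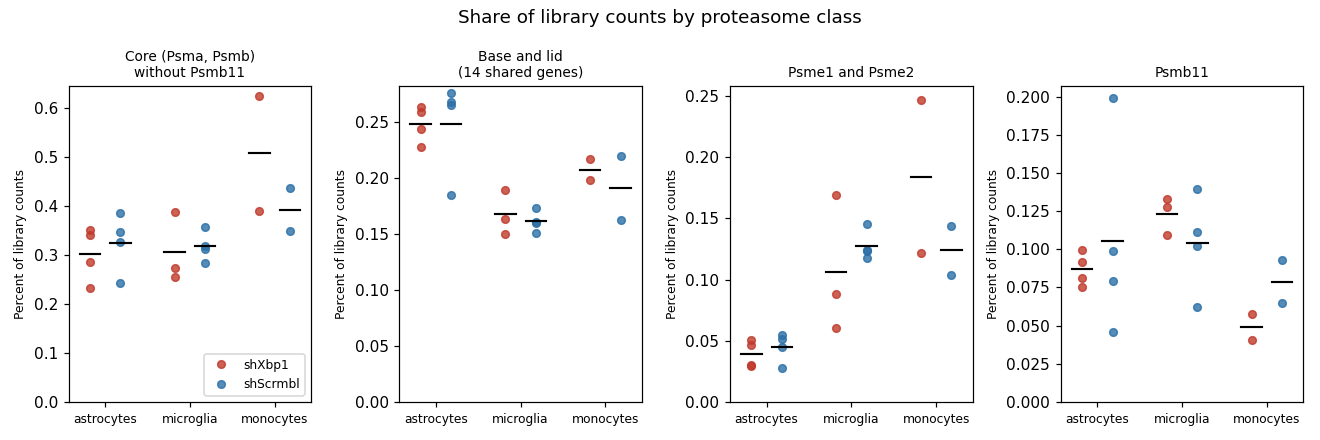
The y axis is the percent of a library's counts, each point is 1 library, and the line is the mean of the group. Base and lid genes are highest in astrocytes (0.248%), Psme1 and Psme2 lowest there (0.0420%), and shXbp1 and shScrmbl points overlap except for Psmb11 in monocytes.

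Psmb11, the core gene known for expression in thymus cortical epithelium, was the most counted member in astrocytes and microglia. It had 963 CPM in astrocytes, 1122 in microglia and 639 in monocytes, 6.34, 8.17 and 4.07 times the median of the other members, and ranked 97 of 6376, 122 of 3067 and 219 of 3776 genes. Its share of core counts averaged 23.4% ± 9.76 in astrocytes (SD, n = 8) and 26.4% ± 5.93 in microglia (n = 7). The gene lies at chr14:54625310-54629556 on the plus strand, next to Psmb5 at chr14:54614120-54617995 on the minus strand (RefSeq, GRCm38.p6). The GENCODE M21 annotation gives it an earlier start, at chr14:54621433-54629556. The promoter printed below uses the RefSeq start. In GENCODE it overlaps no other gene, whereas 16 of the 39 members do, and the counting rules are not given in the sources used here.

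By library, Psmb11 signal in astrocytes was 682, 866, 885 and 969 in shXbp1, against 461, 2534, 932 and 717 in shScrmbl. The shScrmbl replicate 2 library stood far above the others with 601 counts, 45.1% of its core counts, and the groups overlapped. In microglia the signal was 836, 1173, 1484 in shXbp1, against 1298, 1299.7, 1167 and 640.0 in shScrmbl, again overlapping. Monocytes had 455 and 482 in shXbp1, against 964 and 665 in shScrmbl, without overlap. The log2 differences of -0.16 ± 0.41, 0.10 ± 0.38 and -0.77 ± 0.64 (limma, SE) did not pass the threshold, with adjusted p of 0.926, 0.987 and 0.887.

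Summed, the 3 constitutive catalytic subunits took nearly equal shares of counts in the 3 cell types. Psmb5, Psmb6 and Psmb7 together made up 0.0635% ± 0.0150 of counts in astrocytes (SD, n = 8), 0.0649% ± 0.0227 in microglia (n = 7) and 0.0590% ± 0.0252 in monocytes (n = 4). Their interferon-induced counterparts Psmb8, Psmb9 and Psmb10 made up 0.0130% ± 0.00524, 0.0594% ± 0.0209 and 0.112% ± 0.0378. The immunoproteasome share of Psmb5 to Psmb10 counts was thus 17.2% ± 5.91 in astrocytes, 47.8% ± 11.7 in microglia and 65.1% ± 13.7 in monocytes. Psmb11 was not part of this share, and made up 0.0963%, 0.112% and 0.0639% of counts in the same order. No astrocyte library, at 7.32% to 23.9%, reached the lowest microglia library, at 26.7%. That microglia library had 4 of 15 counts, with a Clopper-Pearson 95% interval of 7.79% to 55.1%, so counting error does not separate it from astrocytes.

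**Figure D3:**
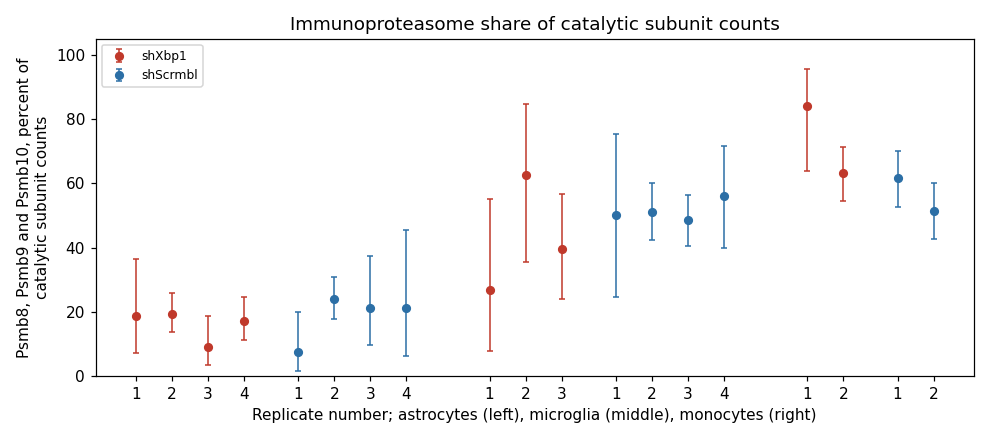
Each point is the percent of Psmb5 to Psmb10 catalytic counts that came from Psmb8, Psmb9 and Psmb10 in 1 library, with an exact Clopper-Pearson 95% interval for counting error. Astrocyte libraries lie between 7.32% and 23.9%, microglia between 26.7% and 62.5%, and monocytes between 51.4% and 84.0%.

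The pairs of subunits that replace each other differed in their mix. Psmb8 took 26.2% ± 10.2 of the counts of Psmb5 and Psmb8 in astrocytes, 74.5% ± 17.3 in microglia and 91.2% ± 6.45 in monocytes. Psmb10 took 40.7% ± 17.3, 79.0% ± 24.4 and 83.4% ± 12.8 of the counts of Psmb7 and Psmb10. Psmb9 took only 5.49% ± 5.24, 15.2% ± 9.60 and 20.6% ± 10.1 of the counts of Psmb6 and Psmb9, and Psmb6 was the most counted of the 3 constitutive catalytic genes, with 403, 491 and 470.4 CPM. Psmb5 had 154, 119 and 62.1 CPM and Psmb7 had 77.5, 39.4 and 57.8, so single genes were less even than their sum. For both genes the libraries of the 3 cell types overlapped. Named copies in RefSeq exist for Psmb5, Psmb6, Psmb7, Psma5 and Psme2, so the levels of these 5 members are uncertain where reads could be assigned to a copy.

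Astrocyte libraries also held counts of markers of the cells in which the immunoproteasome share was higher. The 12 microglia markers summed to 0.108% to 0.156% of counts in shXbp1 and 0.0564% to 0.260% in shScrmbl astrocytes. The 6 measured of 12 monocyte markers summed to 0.0751% to 0.197% in shXbp1 and 0.0496% to 0.373% in shScrmbl astrocytes. In microglia libraries the microglia markers summed to 0.683% to 1.55% in shXbp1 and 0.608% to 0.918% in shScrmbl. The part of such cells, or of choroid plexus cells, in the astrocyte counts of Psmb8 to Psmb10 was not tested.

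Between viruses, the immunoproteasome share overlapped in astrocytes, with 18.8%, 19.2%, 9.09% and 17.1% in shXbp1 against 7.32%, 23.9%, 21.1% and 21.1% in shScrmbl. It also overlapped in microglia, with 26.7%, 62.5% and 39.5% in shXbp1 against 48.4% to 56.1% in the 4 shScrmbl libraries. In monocytes, 84.0% (21 of 25 counts) and 63.2% in shXbp1 stood above 61.6% and 51.4% in shScrmbl. The 95% intervals of the nearest 2 libraries overlapped, at 54.4% to 71.4% for 63.2% and 52.5% to 70.2% for 61.6%. Of single genes in monocytes, 9.85% were higher and 25% lower in shXbp1 without overlap. No test was run on the immunoproteasome share, and none of Psmb8, Psmb9 and Psmb10 passed limma's threshold in any cell type.

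Promoters are shown for Psmb5 and its counterpart Psmb8, whose mix differed most in value between cell types, for Psmb11 and for the activator gene Psme1. Each covers 250 bases before to 50 after the annotated start (RefSeq, GRCm38.p6), from chr14:54617946-54618245 on the minus strand, chr17:34197945-34198244, chr14:54625060-54625359 and chr14:55578244-55578543 on the plus strand. Capitals mark 3 motifs on either strand. The first is TGANNNNGC, a loose pattern used here as the core of the antioxidant response element and called antioxidant core. That element is bound by the NRF1 and NRF2 factors known to drive proteasome genes, but a match to the pattern need not be. The others are the gamma interferon activation site TTCNNNGAA, and the interferon-stimulated core, which is GAAA, 2 bases of any kind and GAAA.
Psmb5: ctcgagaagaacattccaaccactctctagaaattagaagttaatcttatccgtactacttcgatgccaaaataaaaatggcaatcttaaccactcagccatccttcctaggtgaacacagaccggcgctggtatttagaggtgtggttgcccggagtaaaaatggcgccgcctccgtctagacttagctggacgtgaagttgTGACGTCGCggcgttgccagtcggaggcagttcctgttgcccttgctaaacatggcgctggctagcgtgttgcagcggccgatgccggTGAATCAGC
Psmb8: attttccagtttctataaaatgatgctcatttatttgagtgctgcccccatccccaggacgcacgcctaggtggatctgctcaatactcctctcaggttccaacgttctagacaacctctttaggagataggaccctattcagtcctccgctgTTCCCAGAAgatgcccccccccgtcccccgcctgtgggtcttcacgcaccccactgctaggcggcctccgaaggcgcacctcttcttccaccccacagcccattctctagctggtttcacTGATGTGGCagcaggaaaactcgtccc
Psmb11: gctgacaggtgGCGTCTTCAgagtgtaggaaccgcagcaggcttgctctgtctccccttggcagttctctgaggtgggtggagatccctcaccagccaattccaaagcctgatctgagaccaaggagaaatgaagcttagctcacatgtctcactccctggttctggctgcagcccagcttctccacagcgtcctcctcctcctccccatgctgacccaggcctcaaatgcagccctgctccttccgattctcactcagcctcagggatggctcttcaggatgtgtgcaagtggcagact
Psme1: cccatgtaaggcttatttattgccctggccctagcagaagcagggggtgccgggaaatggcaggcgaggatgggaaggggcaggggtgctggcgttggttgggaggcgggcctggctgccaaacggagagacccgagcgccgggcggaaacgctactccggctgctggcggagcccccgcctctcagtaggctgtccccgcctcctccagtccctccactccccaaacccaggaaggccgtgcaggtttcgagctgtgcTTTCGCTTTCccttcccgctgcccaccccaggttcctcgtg
Psmb5 holds 2 antioxidant cores, Psmb8 holds 1 antioxidant core and 1 gamma interferon site, Psmb11 holds 1 antioxidant core, and Psme1 holds 1 interferon-stimulated core. No marked motif overlaps another. The promoters of Psmb9, Psmb10 and Psme2, which are not shown, hold 0 gamma interferon sites and 0 interferon-stimulated cores.

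RefSeq promoters were matched for 34 of the 39 members. The antioxidant core was in 18 of them, 52.9%, against 41.4% of all 27025 promoters. The interferon-stimulated core was in 5, 14.7%, against 3.49%, and the gamma interferon site in 1, 2.94%, against 8.47%. The CCAAT box (letters CCAAT) was in 13, 38.2%, against 37.9%. The core of the element to which XBP1 binds, TGACGTGG, was in 0 of the 34, against 0.607% of all promoters. These are letter matches in a short window and say nothing of binding.

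The activator genes Psme1 and Psme2, whose products form the interferon-induced regulator of the core, were lowest in astrocytes. Together they took 7.02% ± 2.03 of the counts of the 30 shared members in astrocytes (SD, n = 8), against 19.5% ± 3.54 in microglia (n = 7) and 18.7% ± 2.73 in monocytes (n = 4). Psme2 was the highest member besides Psmb11 in microglia, at 903 CPM, and the highest of all in monocytes, at 1175. In astrocytes it had 297, and Psme1 had 122.5, 279.7 and 366 CPM in the 3 cell types. Psme3, coding for a nuclear activator, and Psme4, coding for a large single-chain activator, were measured in astrocytes, at 37.7 and 66.3 CPM.

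In astrocytes, the cell type the vector targets, no proteasome gene passed the test between viruses. Members summed to 0.718% ± 0.0852 of counts in shXbp1 and 0.759% ± 0.0511 in shScrmbl (SD, n = 4 each). Limma called 0 of 39 members, with 0% of 6366 genes called, at adjusted p under 0.05 (Benjamini-Hochberg). At unadjusted p under 0.05 limma called 0 members and 298 genes, 4.68%, and edgeR 0 members and 415 genes, 6.52%. EdgeR's quasi-likelihood test called 0 members and 1 gene, 0.0157%, and DESeq2 called 0 and 0. By sign, 16 members were higher, with 68.2% of all genes, and 23 lower, with 31.8% of all genes. They had a median log2 difference of -0.08 against 0.42 over all genes, and with edgeR the medians were -0.02 and 0.05. The gap of -0.49 between members and all genes was -0.30 and -0.14 with pseudocounts of 10 and 50.

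The core genes had a median of -0.08 over 15, base and lid 0.01 over 18, and activators -0.25 over 4 in astrocytes. Psmd10 was the only member without overlap of the groups, with signals of 34.1, 52.9, 20.8 and 19.9 in shXbp1 against 80.2, 63.3, 53.3 and 55.2 in shScrmbl, where 0.785% of genes were lower without overlap; 0 members, against 2.37% of genes, were higher without overlap. Every shXbp1 library was below every shScrmbl library, by a log2 difference of -1.05 ± 0.68 from 18 counts in shXbp1 and 23 in shScrmbl, with a limma adjusted p of 0.824. Psmd14 had 102.3, 72.2, 41.6 and 73.0 in shXbp1 against 100.3, 101, 0 and 0 in shScrmbl. Its value of 2.79 ± 1.51 rests on the 2 shScrmbl libraries without a count, and was 0.05 with edgeR.

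The other members nearest to the threshold in astrocytes had overlapping groups. Psmd7 averaged 229 ± 34.9 in shXbp1 and 160.4 ± 81.5 in shScrmbl (SD, n = 4 each), a log2 difference of 0.64 ± 0.41. Psme4 averaged 83.6 ± 24.5 in shXbp1 and 47.9 ± 14.1 in shScrmbl, a difference of 0.80 ± 0.51. Psma2 and Psmc3 had -0.68 ± 0.43 and -0.44 ± 0.32. All 4 had a limma adjusted p of 0.824.

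In microglia, too, no proteasome gene passed. Members summed to 0.702% ± 0.138 of counts in shXbp1 (SD, n = 3) and 0.711% ± 0.0672 in shScrmbl (n = 4), and the difference ran from -0.0858 to 0.0460 percentage points when each library was left out. Limma called 0 of 31 members and 0 of 3066 genes, 0%, with 0 members and 166 genes, 5.41%, at unadjusted p under 0.05, where edgeR had 2 members and 168 genes, 5.48%. EdgeR called 0 members and 12 genes, 0.391%, and DESeq2 0 and 0. By sign 8 members were higher, with 34.5% of all genes, and 23 lower, with 65.5% of all genes, and the median log2 difference was -0.42 against -0.39 over all genes. With edgeR these were -0.26 and -0.09.

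Psma1, an alpha ring gene, had signals of 0, 69.0 and 47.9 in shXbp1 microglia, against 156, 177, 243 and 120.0 in shScrmbl. All shXbp1 libraries were lower, from 3 counts in shXbp1 against 46 in shScrmbl, where 4.92% of genes were lower without overlap. The log2 difference was -3.49 ± 1.72 with a limma adjusted p of 0.804. In edgeR it was -2.09, with an unadjusted p of 0.0081 and an adjusted p of 0.444. Psmc1, a base ATPase, was the other member under 0.05 unadjusted in edgeR, at -1.69 (adjusted p 0.899), but its groups overlapped.

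Psmb4 and Psmd9 were higher without overlap in microglia, in a table where 2.32% of genes were. Psmb4 had 152, 207 and 119.7 in shXbp1 against 0, 101, 93.3 and 40.0 in shScrmbl, a log2 difference of 2.64 ± 1.88 in limma and 0.85 in edgeR. Psmd9 had 228, 138 and 144 in shXbp1 against 51.9, 114, 121 and 40.0 in shScrmbl, a difference of 1.16 ± 0.77 in limma. Both had a limma adjusted p of 0.814. They rest on few counts. Psmb4 had 2, 3 and 5 counts in shXbp1 against 0, 8, 10 and 1 in shScrmbl. Psmd9 had 3, 2 and 6 counts in shXbp1 against 1, 9, 13 and 1 in shScrmbl. Psmd2, a base scaffold gene, had 1.56 ± 1.98, and Psmd1, the other scaffold gene, -3.93 ± 2.27, each with libraries without a count.

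Psme1 and Psme2 had -0.62 ± 0.47 and -0.66 ± 0.41 in microglia, not past the threshold. Psme2 signals were 1139.9, 345 and 670.4 in shXbp1, against 779, 1312, 1008 and 1040.0 in shScrmbl, and the groups overlapped. All 8 measured genes of interferon gamma induced antigen processing, and all 11 measured monocyte markers, were on the lower side in limma. So were 65.5% of all genes. The first list includes Psme1, Psme2, Psmb8, Psmb9 and Psmb10, so it is not separate from the genes above. It summed to 0.668% to 0.867% of counts in shXbp1 microglia and 1.21% to 1.29% in shScrmbl, without overlap. Of single genes, 4.92% were lower without overlap. In astrocytes 7 of its 8 measured genes were lower, with 31.8% of all genes. In monocytes 6 of 8 were higher, with 34.2% of all genes. The sums overlapped in both. In microglia limma called 0 in both lists, and edgeR called 0 and 2. Monocyte markers summed to 0.279% to 1.01% of counts in shXbp1 microglia and 0.626% to 2.18% in shScrmbl microglia. Depth moved with the group as well, at 10039 to 46586 counts in shXbp1 and 17892 to 122002 in shScrmbl. The part of either in these differences was not tested.

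**Figure D4:**
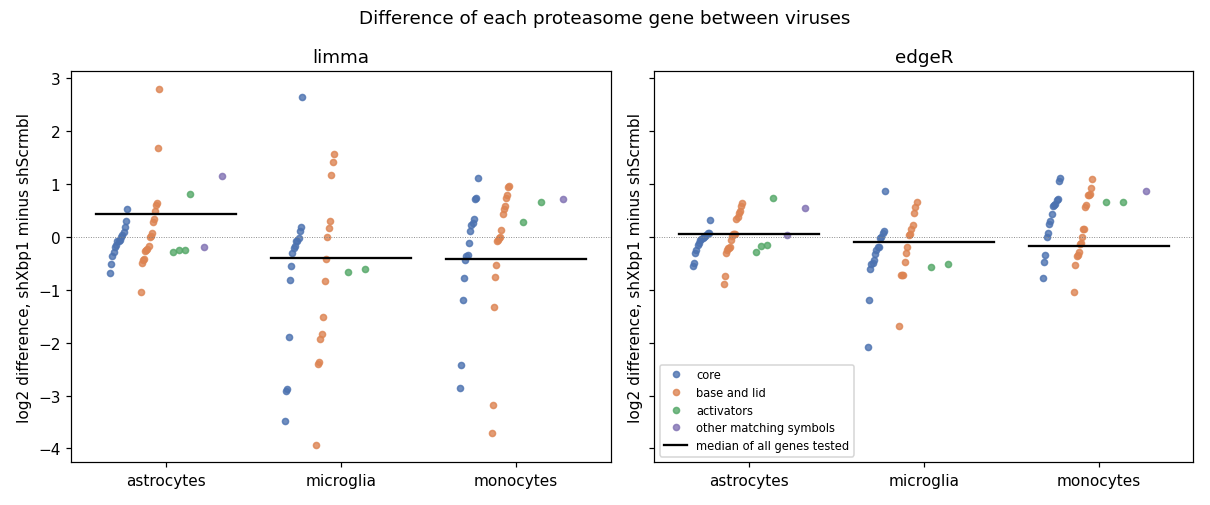
The y axis is the log2 difference of shXbp1 minus shScrmbl for each member, by class and cell type, in limma and edgeR, and the black line is the median of all genes tested. The limma median of members is -0.08 against 0.42 over all genes in astrocytes and 0.11 against -0.42 in monocytes, and every difference beyond 2 belongs to a gene with a library without a count.

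In monocytes, limma called 101 of 3775 genes, 2.68%, and none of the 35 members. Of those 101, 100 were lower, and 99 of them had no count in both shXbp1 libraries, which was true of 0 members. The 18 higher and 17 lower members stood beside 34.2% and 65.8% of all genes. At unadjusted p under 0.05 limma had 0 members and 180 genes, 4.77%, and edgeR 0 members and 178 genes, 4.72%. At the adjusted threshold edgeR called 0 members and 1 gene, 0.0265%, with DESeq2 at 0 and 0. Members summed to 0.986% ± 0.247 of counts in shXbp1 and 0.812% ± 0.155 in shScrmbl (SD, n = 2 each). The difference of 0.174 percentage points was -0.000877 without shXbp1 replicate 2, 0.348 without shXbp1 replicate 1, 0.283 without shScrmbl replicate 1 and 0.0643 without shScrmbl replicate 2. Members had a median of 0.11 against -0.42 over all genes, and 0.42 against -0.17 with edgeR.

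Without overlap, 5 members were higher (Psmb1, Psmd2, Psmd4, Psme1 and Psmf1), where 9.85% of genes were, and 3 lower (Psmb4, Psmb11 and Psmd9), where 25% of genes were. Psmb1 had 859 and 963 in shXbp1 against 447 and 401 in shScrmbl, a log2 difference of 1.10 ± 0.63. Psmd4, which codes for a ubiquitin receptor, had 253 and 188 in shXbp1 against 126 and 100.2 in shScrmbl, a difference of 0.95 ± 0.74. Psme1 had 404 and 482 in shXbp1 against 238 and 328 in shScrmbl, 0.66 ± 0.68. Each shXbp1 library was above both shScrmbl libraries in these 3 genes, and each had an adjusted p of 0.887. Markers and depth moved with the group too. Monocyte markers summed to 0.862% to 1.69% of counts in shXbp1 and 2.07% to 2.25% in shScrmbl monocytes, T and NK cell markers to 0.279% to 0.377% in shXbp1 and 0.150% to 0.239% in shScrmbl, and neutrophil markers to 0.0124% to 0.0319% in shXbp1 and 0.0719% to 0.0794% in shScrmbl. Depth was 15654 and 56625 counts in shXbp1 against 74340 and 112676 in shScrmbl. The part of these in the differences was not tested.

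Psmd12, a lid gene, was at 0.93 ± 0.85, and Psmc2, Psma1 and Psmd1 at -1.33 ± 0.78, -1.20 ± 0.79 and -3.17 ± 2.38 in monocytes, all with overlapping groups. Psme2 had 556 and 2449.5 in shXbp1 against 1258 and 738 in shScrmbl, so the shXbp1 libraries lay on both sides of the others. The classes varied unevenly between libraries. Core genes without Psmb11 took 0.3897% and 0.625% of counts in shXbp1 replicates 1 and 2, against 0.436% and 0.3497% in shScrmbl, whereas base and lid genes took 0.2300% and 0.233% in shXbp1, against 0.239% and 0.178% in shScrmbl. Without shXbp1 replicate 2, limma called 9 of 35 members, where it called 1163 of 3776 genes, 30.8%. Without shXbp1 replicate 1 it called Psme2 alone among members, where it called 486 genes, 12.9%. In that setting edgeR also called Psme2 alone among members, and 61 genes, 1.62%. In both cases a lone shXbp1 library is assumed to vary like the others.

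Genes around the proteasome gave no calls either. Limma, edgeR and DESeq2 called 0 of 4 ubiquitin genes in each cell type, and 0 of 6, 3 and 4 measured ubiquitin activation and shuttle factors in astrocytes, microglia and monocytes. They also called 0 of 2 lid and base genes without a Psm symbol in each cell type, 0 of 4, 2 and 3 assembly genes and 0 of 4, 1 and 2 proteasome-bound deubiquitinases and ligases. Ubiquitin genes took 0.598% to 0.943% of counts in shXbp1 and 0.724% to 1.06% in shScrmbl astrocytes. In microglia they took 1.52% to 1.97% in shXbp1 and 1.49% to 2.09% in shScrmbl, and in monocytes 1.60% to 2.71% in shXbp1 and 1.73% to 1.89% in shScrmbl.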

How the data were processed

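RNA of 19 libraries was measured by 3′ digital gene expression. For each cell type the authors deposited a normalized signal per gene, here a whole count times a step: 100% of values were whole within 0.01. BWA 0.7.10, limma 3.34.1 and mm10 are listed, with no role, in the submitters' processing notes. Counter, strand rule and scaling are not given in the sources used here. Microglia symbols, in capitals, were matched by RefSeq symbols.

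Within each table, limma 3.58.1 (trend, robust) was fitted on log2(signal + 1), where 1 count was worth 4.22 to 76.0 signal, so that a library without a count widens a difference, keeping genes that reached a signal of 1 in n libraries, n being the size of the smaller group. Benjamini-Hochberg adjustment ran over all genes. Recovered counts went to edgeR 4.0.16 and DESeq2 1.42.0 in R 4.3.3. The scripts were tested on simulated data. Levels were percents or millionths of a library's counts, summed over the genes in its table. Intervals, exact Clopper-Pearson, cover counting error only. Named members are the catalytic subunits, the 3 smallest limma p in each direction, the extremes of each class, Xbp1, members called or without a count in a group, and members without overlap, added after their values were seen. Members and gene lists were chosen with earlier results of these data known. Libraries were not treated as paired by replicate number. Correlations of same-numbered libraries, as deviations from group means, were -0.0773 to 0.0824 in astrocytes, -0.0347 to 0.045 in microglia and -0.1893 in monocytes. Astrocyte replicate 1 and microglia replicate 2 matched their own number best. With 2 libraries per group the deviations mirror each other, so monocytes give a single value. These values cannot exclude a pairing, since depth and libraries without a count enter them.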

Additional observations from a re-analysis of the deposited data

Results flagged for a closer look

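In groups of 4 libraries, 3 of 78 sets of values had 1 library far from the others, where chance flags about 1 in 20. Psmb10 had a signal of 93.0 in shXbp1 astrocyte replicate 4, with the others at 28.9 to 34.1. Members without Psmb11 took 0.507% of counts in shScrmbl astrocyte replicate 2, with the others at 0.689% to 0.725%. Psmb5, Psmb6 and Psmb7 took 0.0447% of counts in shScrmbl microglia replicate 1, with the others at 0.0679% to 0.0697%.

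Psmb4 and Psmd9 lay on opposite sides in 2 cell types without overlap of the viruses. Psmb4 had a limma log2 difference of 2.64 in microglia and -0.37 in monocytes, and Psmd9 had 1.16 and -0.53. In microglia Psmb4 rested on 10 counts in shXbp1 and 19 in shScrmbl, and Psmd9 on 11 and 24. In monocytes Psmb4 rested on 7 counts in shXbp1 and 24 in shScrmbl. The difference between cell types was not tested.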

How the results depend on the processing

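No member was called under any setting with every library. Genes called changed: in astrocytes 1 with edgeR under either TMM or RLE scaling, in microglia 1 with pseudocount 50, 6 with quantile normalization, and 12 and 11 with edgeR TMM and RLE, and in monocytes 0 with pseudocount 10, pseudocount 50, a mean signal of at least 100, quantile normalization or DESeq2, and 1 with edgeR TMM or RLE. The members' median minus that of all genes was -0.49 in astrocytes, and -0.30 and -0.14 with pseudocounts 10 and 50; it was -0.39 in microglia and 0.14 in monocytes under quantile normalization. The sign turned for Psmd14 in astrocytes with edgeR RLE (-0.011), for Xbp1 in astrocytes with quantile (-0.053), TMM (-0.080), RLE (-0.15) and DESeq2 (-0.13), and for Xbp1 in microglia with quantile (0.59). The cause was not tested.

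Leaving out each library gave 0 to 3 genes called in microglia, 0 to 1163 in monocytes, and 0 to 9 members in monocytes, with a median gap of -0.26 to 0.23 in microglia and -0.067 to 0.85 in monocytes. The difference in the members' share of counts ran from -0.0858 to 0.0460 percentage points in microglia and -0.000877 to 0.348 in monocytes. Values of single genes that changed sign ran from -0.50 to 0.32 (Psmb11) and -0.23 to 0.42 (Xbp1) in astrocytes, from -0.15 to 0.32 (Psmb11), -0.10 to 2.21 (Psmd2) and -1.90 to 1.67 (Xbp1) in microglia, and from -2.45 to 0.060 (Psma1), -6.53 to 0.19 (Psmd1), -0.79 to 1.35 (Psme2) and -0.27 to 0.998 (Xbp1) in monocytes. The 9 members called without monocyte shXbp1 replicate 2 were Psma1, Psma2, Psmb5, Psmb6, Psmb7, Psmc1, Psmc2 and Psmd1, lower, and Psmd7, higher, where 30.8% of genes were called. Without shXbp1 replicate 1 only Psme2 was called among members, at 1.35 in limma (adjusted p 0.0254; 12.9% of genes called) and 1.26 in edgeR (adjusted p 0.0116; 1.62%).

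With the replicate block, 0 members were called in each cell type, and 0, 0 and 112 genes in astrocytes, microglia and monocytes, and Psmb11 in microglia was -0.15. The crossed block in monocytes, added after seeing the data, called 114 genes and 0 members.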
